A study of Mus musculus with 18 samples.

Results

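Titin, nebulin and the proteins of the Z-disc and the M-band form the scaffold of the sarcomere, the repeating contractile unit of striated muscle. The genes described here are the 10 named as Ttn, Neb, Actn2, Actn3, Myom1, Myom2, Tcap, Ldb3, Myot and Myoz1, chosen by name from the 35275 mouse genes of the deposited expression table. All 10 were found there through the Ensembl identifiers that the files pair with their symbols. The libraries came from C2C12, a mouse myoblast line that can fuse into myotubes when serum is lowered. The labels describe the stock as PAX7 negative, which applies to control and overexpressing cells alike. Wild-type control cells were compared with cells overexpressing MUNC, a long noncoding RNA transcribed upstream of the myogenic factor gene Myod1, either as its spliced form (MUNC spliced) or as its genomic form (MUNC genomic). Each of the 3 kinds of cells was sampled in growth medium with 20% fetal bovine serum at about 80% confluency (GM), and after 3 days in 2% horse serum (DM3). Differentiation below names this change from GM to DM3, whether or not markers of differentiated muscle rose. The 6 groups have 3 libraries each, labelled as biological replicates, 18 libraries in all. Whether each overexpressing line was 1 clone or a pool, what vector was used and whether control cells carried an empty one are not given in the sources used here. No gene symbol in the table matched MUNC, so its level was not analysed here.

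In a sarcomere the thin actin filaments are anchored at the Z-disc and the thick myosin filaments are cross-linked at the M-band. Titin is a giant elastic protein that runs from the Z-disc to the M-band, and nebulin lies along the thin filament of skeletal muscle. Alpha-actinin cross-links actin filaments in the Z-disc, where Ldb3, telethonin (Tcap), myotilin (Myot) and calsarcin (Myoz1) are also found, and the myomesins bridge thick filaments in the M-band. Myogenic regulatory factors such as MyoD and myogenin bind E-boxes, short DNA motifs with the letters CANNTG, and MEF2 factors bind an A and T rich motif.

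Promoter sequences were held for 4 of the 10 genes in RefSeq (assembly GRCm38.p6), each running from 250 bases before to 50 bases after an annotated start. Those of Ttn, Ldb3 and Actn2 are shown because these genes gave 3 different patterns across the libraries: Ttn rose with differentiation in every kind of cell, Ldb3 was called higher with it in control cells and in neither MUNC line, and Actn2 had almost no reads. They lie at chr2:76982498-76982797, chr14:34588632-34588931 and chr13:12340683-12340982, all on the minus strand. Each is written 5′ to 3′ on the gene's strand, with matches to CANNTG and to the MEF2 motif in capitals.
Ttn: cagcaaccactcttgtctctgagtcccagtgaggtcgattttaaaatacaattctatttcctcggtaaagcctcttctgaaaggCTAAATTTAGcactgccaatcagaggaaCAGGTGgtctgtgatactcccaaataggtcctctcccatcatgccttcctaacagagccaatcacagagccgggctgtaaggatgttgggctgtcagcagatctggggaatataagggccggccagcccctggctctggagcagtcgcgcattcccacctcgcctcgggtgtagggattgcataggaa
Ldb3: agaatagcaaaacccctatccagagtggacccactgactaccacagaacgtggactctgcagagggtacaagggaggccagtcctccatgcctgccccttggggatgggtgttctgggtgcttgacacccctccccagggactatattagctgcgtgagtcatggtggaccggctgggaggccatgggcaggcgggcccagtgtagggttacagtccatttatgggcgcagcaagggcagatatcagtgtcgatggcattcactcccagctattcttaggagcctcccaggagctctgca
Actn2: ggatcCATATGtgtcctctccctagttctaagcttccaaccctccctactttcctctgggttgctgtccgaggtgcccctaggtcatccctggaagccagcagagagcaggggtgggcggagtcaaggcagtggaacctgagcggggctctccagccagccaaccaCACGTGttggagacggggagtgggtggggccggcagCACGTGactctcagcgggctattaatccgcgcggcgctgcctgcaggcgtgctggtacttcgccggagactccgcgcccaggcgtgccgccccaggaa
The Ttn promoter held 1 CANNTG match, CAGGTG, 138 bases before the start, and 1 MEF2 match, CTAAATTTAG, 166 bases before it. Neither motif was found in the Ldb3 sequence, nor in that of a further annotated Ldb3 start. In Actn2 there were 3 CANNTG matches, CATATG at 245 and CACGTG at 84 and 48 bases before the start, and no MEF2 match. The RefSeq start held for Myom1 lies 16924 bases inside the gene as GENCODE draws it, and its window held 3 CANNTG matches and no MEF2 match. CAGCTG, which is 1 of the sequences that CANNTG covers, occurred in none of the 5 promoters of these genes. Of all 32851 promoters of the same length, 72.3% held CANNTG, 16.3% held CAGCTG and 3.19% held the MEF2 motif; each motif reads as itself on the opposite strand. A match describes these letters in this window and was not tested as a binding site.

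Expression is given as FPM, reads scaled for library size but not for gene length. The values returned whole reads for all genes, and depth ran from 38416702 to 68788327 reads per library. Within groups, pairs of replicates had correlations of 0.980 to 0.996 over the tested genes. In control DM3 libraries, which the labels call myotubes, most markers of differentiated muscle in a list of 10 identity genes were near 0. The myogenic factor Myod1 was at 0 to 0.221 FPM there, Myog, which acts downstream of it, at 0.192 to 0.434, embryonic myosin Myh3 at 0.375 to 0.497, and creatine kinase Ckm had 2 or 3 reads per library. In MUNC spliced DM3 the same markers were at 16.0 to 53.3 FPM for Myod1, 41.0 to 226 for Myog, 24.2 to 177 for Myh3 and 0.732 to 5.05 for Ckm. In MUNC genomic DM3 they were at 14.5 to 22.5 FPM for Myod1, 6.50 to 14.7 for Myog, 7.66 to 13.0 for Myh3 and 1.80 to 5.47 for Ckm. The adult fast myosins of the list stayed near 0 in that group, Myh1 at 0 to 0.0602 FPM, Myh4 at 0 to 0.0195 and Myh2 at 0, and in control DM3 all 3 were at 0. In MUNC spliced DM3, Myh1 was at 1.12 to 13.3 FPM, Myh4 at 0.0523 to 1.59 and Myh2 at 0 to 0.494. Skeletal actin (Acta1) went against the sarcomere genes in control cells, where it fell from 11.2 to 31.0 FPM in GM to 3.43 to 5.68 in DM3 (log2 change -1.93, limma adjusted p = 0.0102). Acta1 rose in MUNC spliced cells, from 4.82 to 20.5 FPM to 35.4 to 249.9 (3.23, adjusted p = 0.000615), and was not called in MUNC genomic cells, at 5.91 to 12.1 and 15.5 to 30.7 FPM (1.32, adjusted p = 0.0721). How reads shared with other actin genes were counted is not given in the sources used here. Myf5, a marker of myoblasts, was present in every library, lower in the MUNC genomic libraries (20.0 to 34.4 FPM) than in the control libraries (66.0 to 110), and Pax7 had 8 reads or fewer in each. Summed fibroblast markers (6 genes, Thy1 at 0 in 4 of 6 groups) were at 3987 to 6790 FPM in control GM, 7989 to 14869 in MUNC spliced GM and 3279 to 9276 in MUNC genomic GM. In DM3 they were at 6916 to 8202 FPM in control, 13290 to 13821 in MUNC spliced and 9759 to 11131 in MUNC genomic cells, so the media did not overlap in control and MUNC genomic cells and did in MUNC spliced cells. The collagen genes Col3a1 and Col1a1 made up most of this sum and did not move alike: in DM3, the mean of Col3a1 was 8878 FPM in MUNC genomic and 5539 in control cells, and that of Col1a1 1388 and 1928. Summed smooth muscle markers (5 genes) were at 1315 to 2204 FPM in control GM, 1897 to 2681 in MUNC spliced GM and 1983 to 2444 in MUNC genomic GM. They were at 1291 to 1437 FPM in control DM3, 1989 to 3290 in MUNC spliced DM3 and 2335 to 3709 in MUNC genomic DM3. Acta2 made up most of this sum (means of 1234, 2247 and 2608 FPM in these DM3 groups), whereas the means of Cnn1 ran the other way (6.36, 0.560 and 1.75 FPM) and those of Smtn were 80.8, 82.9 and 66.6 FPM. Those of Tagln were 49.2, 108 and 138 FPM in DM3. In GM the Tagln mean was highest in control cells (258 FPM), with 131 in MUNC spliced and 183 in MUNC genomic cells. These marker means were not tested. Cardiac markers (7 genes) summed to 19.3 to 41.8 FPM, with Myl7 at 0 in 5 of 6 groups. Adipocyte markers (5 genes) summed to 6.29 to 22.8 FPM, with Adipoq at 0 in 5 of 6 groups, and osteoblast markers (5 genes) to 47.3 to 107, with Ibsp at 0 in all groups. Runx2 made up most of the osteoblast sum (group means of 50.6 to 92.5 FPM). The adipocyte marker Lpl had means of 14.8 and 5.91 FPM in MUNC genomic GM and DM3, and of at most 0.0916 in the other groups. The part of all these markers in the results below was not tested. In these bulk libraries, fewer cells of a type and less RNA per cell cannot be told apart.

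A gene was tested where it reached 0.5 FPM in at least 3 libraries, which 13869 genes did. Of the 10 sarcomere genes, 6 passed (Ttn, Neb, Actn3, Ldb3, Myom1 and Myom2), and Actn2, Tcap, Myot and Myoz1 did not. Ttn and Neb were under 0.5 FPM in every control GM and MUNC genomic GM library and passed through other groups, so that their being tested depended on the groups where they were high. A gene is called where limma, fitted on log2(FPM + 1) with all 18 libraries, gave a Benjamini-Hochberg adjusted p under 0.05 over all 13869 genes. All log2 changes below are on that scale, which understates the change of genes below about 1 FPM.

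Counts given out of the 10 include the genes that were not tested, whereas shares of all genes are over tested genes only. From GM to DM3, 5 of the 10 genes (6 tested) were called higher in control cells (Ttn, Actn3, Ldb3, Myom1 and Myom2) and none lower. Of all tested genes, 29.6% were called higher, 28.6% lower and 58.2% in either direction. The muscle markers Myog, Myh3 and Ckm were not called in that comparison (log2 changes 0.38, 0.14 and 0.02, limma adjusted p = 0.491, 0.823 and 0.957). Their levels were low, where this scale understates a change. Myog was at 0 to 0.0683 FPM in control GM and 0.192 to 0.434 in control DM3, without overlap. Myh3 was at 0.215 to 0.358 and 0.375 to 0.497 FPM, also without overlap, and Ckm libraries overlapped. In MUNC spliced cells 5 of the 10 rose from GM to DM3 (Ttn, Neb, Actn3, Myom1 and Myom2), against 17.2% of all genes called higher and 35.6% in either direction. In MUNC genomic cells 4 of the 10 rose (Ttn, Actn3, Myom1 and Myom2), against 26.3% called higher, 25.1% lower and 51.4% in either direction. The median log2 change of the 6 tested genes was 1.18, 1.84 and 1.62 in these comparisons, and the median of all tested genes was 0.02, -0.01 and 0.02. The 6 were tested because they reached the minimum level, so these counts and medians describe them and carry no test of the set.

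MUNC spliced cells had more Ttn, Actn3 and Myom1 RNA than control cells in both media, 3 of the 10 genes in GM (18.2% of all genes called higher, 35.5% in either direction). In DM3, Ttn, Neb, Actn3 and Myom1 were higher and Ldb3 was lower than in control, 4 and 1 of the 10 (22.3% of all genes called higher, 21% lower and 43.3% in either direction). Between MUNC genomic and control cells in GM, 1 of the 10 was called, Myom2, which was lower in MUNC genomic cells (14.5% of all genes called lower, 26.8% in either direction). In DM3 they had more Actn3 and Myom1 and less Myom2 and Ldb3 than control, 2 and 2 of the 10 (19.3% of all genes called higher, 20.9% lower and 40.3% in either direction). Set against MUNC genomic cells, MUNC spliced cells had more Ttn and Myom2 in GM (19.9% of all genes called higher, 35.8% in either direction). In DM3 they had more Ttn, Neb, Myom1 and Myom2 (23.4% of all genes called higher, 44.2% in either direction). Comparisons that use the same libraries, such as both MUNC lines against control, are not independent of each other.

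**Figure D1:**
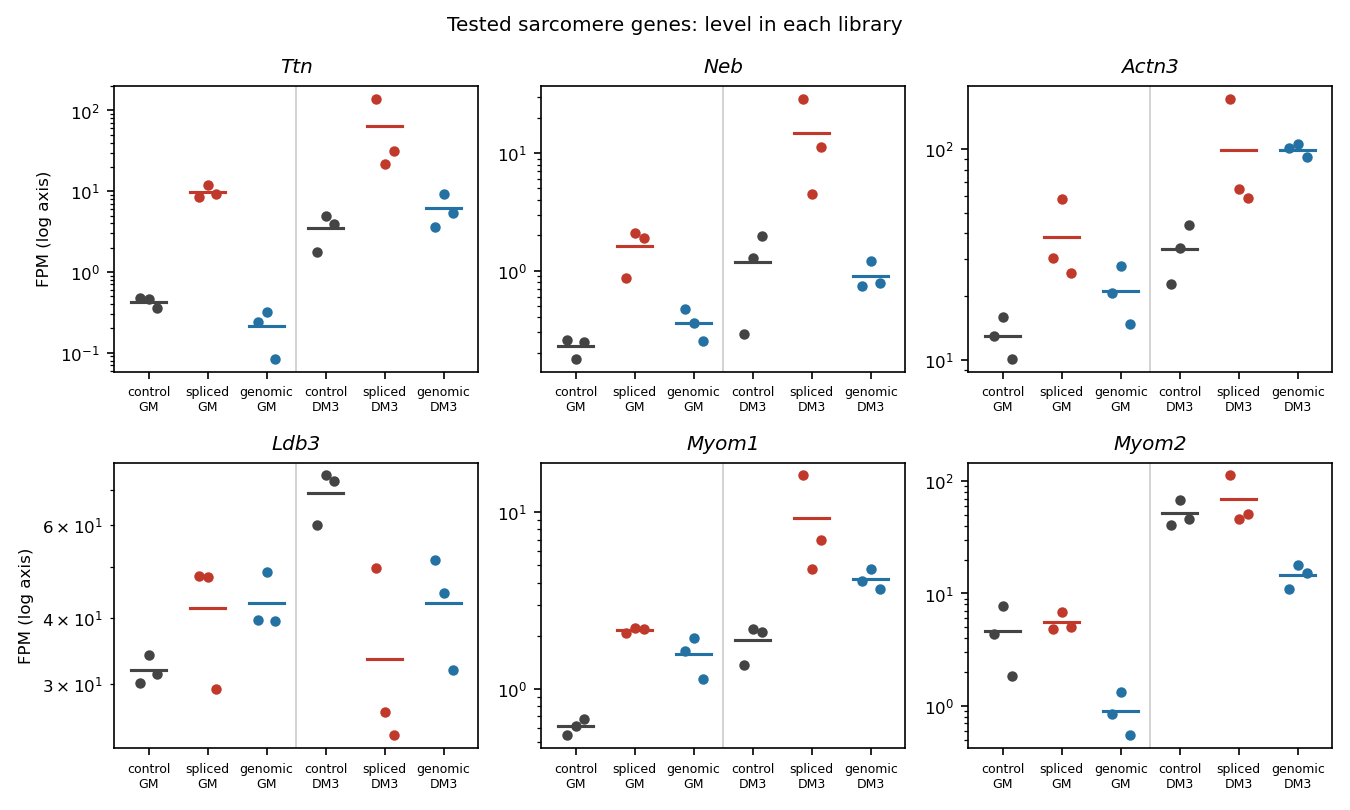
Level of the 6 tested genes in each library, in FPM on a log axis, by group. Each point is 1 library and each bar is the mean of 3. Ttn and Neb are highest in MUNC spliced DM3, Ldb3 is highest in control DM3, and Myom2 is low in both MUNC genomic groups beside control cells in the same medium.

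Titin (Ttn, ENSMUSG00000051747) spans chr2:76703980-76982547 on the minus strand in GRCm38, with 116825 bases of exon. In GM, Ttn stood at 0.478, 0.460 and 0.353 FPM in control replicates 1 to 3, at 8.38, 11.9 and 9.29 in MUNC spliced, and at 0.243, 0.321 and 0.0840 in MUNC genomic. In DM3 it stood at 1.79, 4.89 and 3.89 FPM in control, at 139, 21.7 and 31.2 in MUNC spliced, and at 3.64, 9.34 and 5.42 in MUNC genomic. All DM3 libraries were above the GM libraries of the same cells, and MUNC spliced libraries were above those of both other kinds of cells in the same medium. MUNC spliced cells in GM already had more titin RNA (9.84 ± 1.81 FPM, SD, n = 3) than control cells in DM3 (3.52 ± 1.59), and their range overlapped that of MUNC genomic DM3 (6.13 ± 2.91).

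From GM to DM3 the mean of Ttn rose 8.18-fold in control cells (log2 change 1.59, SE 0.48, limma adjusted p = 0.00907), 6.49-fold in MUNC spliced cells (2.12, adjusted p = 0.00281) and 28.4-fold in MUNC genomic cells (2.48, adjusted p = 0.000439). Neither MUNC line's change was shown to differ from that of control (interaction 0.53, adjusted p = 0.642, for MUNC spliced and 0.89, adjusted p = 0.484, for MUNC genomic). Against control, MUNC spliced cells had 22.9-fold more Ttn in GM (log2 change 2.91, SE 0.48, adjusted p = 0.000209) and 18.1-fold more in DM3 (3.44, SE 0.48, adjusted p = 2.72e-05). Against MUNC genomic cells they had 45.6-fold more in GM (3.15, adjusted p = 8.09e-05) and 10.4-fold more in DM3 (2.79, adjusted p = 0.000163). The MUNC genomic GM libraries held 17, 19 and 4 reads of Ttn and the control GM libraries 28, 26 and 23. Folds taken over these 2 groups thus rest on few reads. MUNC genomic cells were not shown to differ from control in GM (-0.24, 95% interval -1.25 to 0.77) or in DM3 (0.65, -0.36 to 1.66), although in GM their libraries lay below the control ones. MUNC spliced DM3 replicate 1 held 139 FPM of Ttn, 6.38 times the lowest library of its group. Without it, the log2 change from GM to DM3 was 1.33, that against control was 2.65 and that against MUNC genomic was 2.00, and all 3 were still called. Fitting only the compared groups ended the call for MUNC spliced DM3 against GM (adjusted p = 0.0502, range over 9 settings 0.000153 to 0.0502). Across those settings the log2 change ran from 1.42 to 3.05 for control DM3 against GM, 2.39 to 4.83 for MUNC genomic DM3 against GM, 2.76 to 4.51 for MUNC spliced against control in GM, and 3.02 to 5.46 for MUNC spliced against MUNC genomic in GM.

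Nebulin (Neb, ENSMUSG00000026950; chr2:52136647-52378474, minus strand, 26582 bases of exon) is the thin filament's length-spanning partner. In GM, Neb stood at 0.256, 0.177 and 0.246 FPM in control replicates 1 to 3, at 0.858, 2.07 and 1.89 in MUNC spliced, and at 0.472, 0.354 and 0.252 in MUNC genomic. In DM3 it stood at 0.288, 1.28 and 1.95 FPM in control, at 28.9, 4.53 and 11.4 in MUNC spliced, and at 0.732, 1.20 and 0.781 in MUNC genomic. The 3 MUNC spliced DM3 libraries were above all 15 others, and control DM3 replicate 1 was barely above the control GM libraries.

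MUNC spliced DM3 cells had 9.29-fold more Neb than the same cells in GM (log2 change 2.32, SE 0.42, limma adjusted p = 0.000578). They had 12.7-fold more than control DM3 cells (2.63, SE 0.42, adjusted p = 0.000107) and 16.5-fold more than MUNC genomic DM3 cells (2.74, SE 0.42, adjusted p = 5.65e-05). Without MUNC spliced DM3 replicate 1 these log2 changes were 1.70, 2.01 and 2.13, and without replicate 2 of that group they were 2.92, 3.23 and 3.34. In control cells the change from GM to DM3 was 0.75 and was not called (adjusted p = 0.140, range over 9 settings 0.000408 to 0.277), though the libraries did not overlap. It was called with a pseudocount of 0.1 and on recovered reads with edgeR and DESeq2, where it was 1.67, 2.32 and 2.39, and without control DM3 replicate 1, at 1.08 (adjusted p = 0.0496). In GM, the log2 change of MUNC spliced against control was 1.05 (adjusted p = 0.0608, range over 9 settings 5.37e-05 to 0.128) and was called under 5 of 9 other settings. In MUNC genomic cells the change from GM to DM3 was 0.48 (adjusted p = 0.357), and it was called where only these groups were fitted (adjusted p = 0.0123, range over 9 settings 0.0123 to 0.527). The interaction of MUNC spliced with differentiation was 1.57 (adjusted p = 0.0850), and without MUNC spliced DM3 replicate 2 it was 2.17 (adjusted p = 0.00861), which was called.

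Actn3 (ENSMUSG00000006457; chr19:4861216-4877909, minus strand, 2901 bases of exon) encodes the sarcomeric alpha-actinin of fast muscle fibres. In GM, Actn3 stood at 13.0, 16.0 and 10.1 FPM in control replicates 1 to 3, at 30.4, 58.2 and 25.8 in MUNC spliced, and at 20.8, 28.0 and 14.8 in MUNC genomic. In DM3 it stood at 23.0, 33.8 and 43.8 FPM in control, at 173, 64.9 and 58.7 in MUNC spliced, and at 101, 105 and 92.0 in MUNC genomic. Both MUNC lines were above every control library in DM3, and their ranges overlapped each other there. The mean rose from GM to DM3 2.57-fold in control (log2 change 1.27, SE 0.37, limma adjusted p = 0.00730), 2.59-fold in MUNC spliced (1.26, adjusted p = 0.0145) and 4.68-fold in MUNC genomic cells (2.22, adjusted p = 0.000121).

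In DM3, Actn3 was 2.95-fold higher in MUNC spliced than in control cells (log2 change 1.40, SE 0.37, adjusted p = 0.00594) and 2.96-fold higher in MUNC genomic than in control cells (1.58, SE 0.37, adjusted p = 0.00260). The MUNC lines were not shown to differ in DM3 (-0.19, 95% interval -0.97 to 0.59, adjusted p = 0.713). In GM the MUNC spliced line was 2.93-fold above control (1.41, adjusted p = 0.00734), whereas MUNC genomic was not called against control (0.64, adjusted p = 0.223). Without MUNC spliced DM3 replicate 1 the change of that line from GM to DM3 was 0.77 and lost its call (adjusted p = 0.0675), and its difference from control in DM3 was 0.91 and kept it. The call for MUNC spliced DM3 against GM was also lost without MUNC spliced GM replicate 1 (adjusted p = 0.0556), without replicate 3 of that group (0.0771), and where only the compared groups were fitted (0.0902, range over 9 settings 0.00129 to 0.0902).

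Ldb3 (ENSMUSG00000021798; chr14:34526603-34588682, minus strand, 6105 bases of exon), whose protein binds alpha-actinin at the Z-disc, did not follow the other 5. In GM, Ldb3 stood at 30.2, 34.1 and 31.4 FPM in control replicates 1 to 3, at 48.0, 47.9 and 29.4 in MUNC spliced, and at 39.8, 49.0 and 39.4 in MUNC genomic. In DM3 it stood at 60.1, 74.4 and 72.6 FPM in control, at 49.8, 26.6 and 24.0 in MUNC spliced, and at 51.6, 44.6 and 31.9 in MUNC genomic. The 3 control DM3 libraries were above all 15 others, and each of the other 5 groups overlapped the next in the order of their means. Control GM and MUNC genomic GM libraries did not overlap, with MUNC genomic higher. That difference in GM was not called (log2 change 0.41, limma adjusted p = 0.239). From GM to DM3 the mean rose 2.16-fold in control cells (log2 change 1.09, SE 0.24, limma adjusted p = 0.00111). The change was not called in MUNC spliced (-0.35, 95% interval -0.86 to 0.16, adjusted p = 0.269) or in MUNC genomic cells (-0.02, 95% interval -0.53 to 0.49, adjusted p = 0.957).

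The differentiation response of Ldb3 in MUNC spliced cells was 1.44 lower on the log2 scale than that of control cells, a difference tested as an interaction (-1.44, SE 0.34, limma adjusted p = 0.0125), where 6.94% of all tested genes were called lower, 7.43% higher and 14.4% in either direction. It was the only call among the 6 tested genes in that interaction. For MUNC genomic cells the interaction was -1.11 (SE 0.34) and missed the threshold (adjusted p = 0.0541, range over 9 settings 0.0103 to 0.108). It was called with a replicate block (adjusted p = 0.0217), with FPM rescaled to equal sums (0.0457), where only the compared groups were fitted (0.0103) and with DESeq2 on recovered reads (0.0288). In that interaction limma called 0 of the 6 tested genes and 8.81% of all genes (3.56% higher and 5.25% lower), edgeR also called 0 and DESeq2 called 1, and 1 of the 6, Ldb3, had an unadjusted p under 0.05. In DM3, control cells had 2.06-fold more Ldb3 than MUNC spliced cells (log2 change -1.09, SE 0.24, adjusted p = 0.00168) and 1.62-fold more than MUNC genomic cells (-0.70, SE 0.24, adjusted p = 0.0288). The difference from MUNC genomic cells lost its call without control DM3 replicate 2 or 3 (-0.64 and -0.66), without MUNC genomic DM3 replicate 2 or 3 (-0.75 and -0.51), and without the filter on low values (adjusted p = 0.0601, range over 9 settings 0.0132 to 0.0601).

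**Figure D2:**
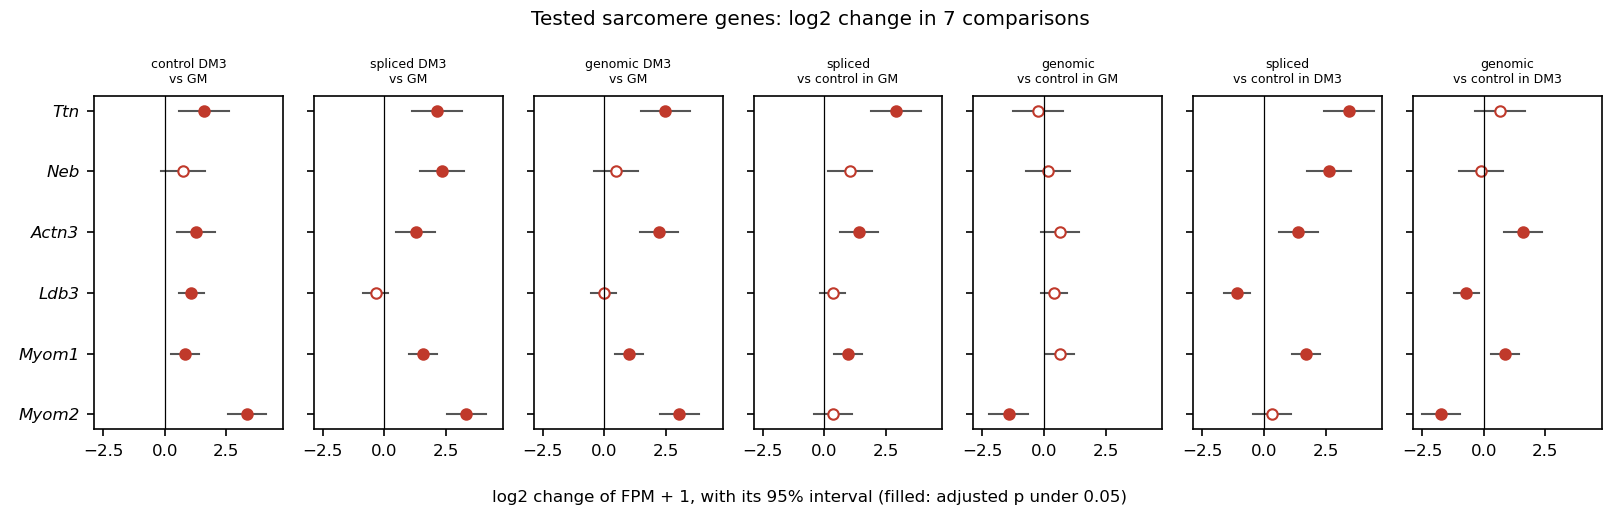
Log2 change of the 6 tested genes, on the log2(FPM + 1) scale, in 7 comparisons, with 95% intervals from limma. Filled points were called at an adjusted p under 0.05. Ldb3 lies at 1.09 for differentiation of control cells and at -0.35 and -0.02 in the MUNC spliced and MUNC genomic lines.

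The other Z-disc genes had few reads or none. Telethonin (Tcap, ENSMUSG00000007877; chr11:98383811-98384953, plus strand), which links the ends of titin at the Z-disc, had 91 reads over the 18 libraries and at most 0.380 FPM. Tcap had 5, 4 and 2 reads in control GM, 3, 3 and 6 in MUNC spliced GM, 2, 4 and 3 in MUNC genomic GM, 5, 3 and 5 in control DM3, 9, 6 and 21 in MUNC spliced DM3, and 2, 2 and 6 in MUNC genomic DM3. The highest count was in MUNC spliced DM3 replicate 3, not in replicate 1 where Ttn was highest. Calsarcin (Myoz1, ENSMUSG00000068697; chr14:20649107-20656540, minus strand), which binds alpha-actinin and the phosphatase calcineurin, had 110 reads in all and at most 0.473 FPM. Myoz1 had 2, 4 and 0 reads in control GM, 1, 0 and 1 in MUNC spliced GM, 2, 1 and 5 in MUNC genomic GM, 4, 24 and 20 in control DM3, 15, 11 and 8 in MUNC spliced DM3, and 3, 5 and 4 in MUNC genomic DM3. It thus reached 8 reads in 5 libraries, all of them control or MUNC spliced DM3.

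Actn2 (ENSMUSG00000052374; chr13:12269426-12340760, minus strand), the alpha-actinin of cardiac and all skeletal fibres, had 30 reads in all, at most 0.143 FPM, and no read in 7 of the 18 libraries. Actn2 had 10, 3 and 1 reads in MUNC genomic GM, 7, 1 and 1 in control DM3, and 0 to 2 in each of the other 12 libraries. Myotilin (Myot, ENSMUSG00000024471; chr18:44334074-44355724, plus strand), which cross-links actin filaments, had 0 reads in all 18 libraries, and a count of 0 allows up to 3 reads in each. These limits cover counting error only, since no molecular identifiers were counted and reads can repeat a molecule. With no filter on low values, limma called Myoz1 higher in DM3 than in GM in control cells (log2 change 0.32, adjusted p = 0.00679) and in MUNC spliced cells (0.25, adjusted p = 0.0484), and lower in MUNC genomic than in control DM3 cells (-0.27, adjusted p = 0.0257). It called Tcap higher in MUNC spliced than in MUNC genomic DM3 cells (0.19, adjusted p = 0.0267), and Actn2 in none of the 11 comparisons.

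**Figure D3:**
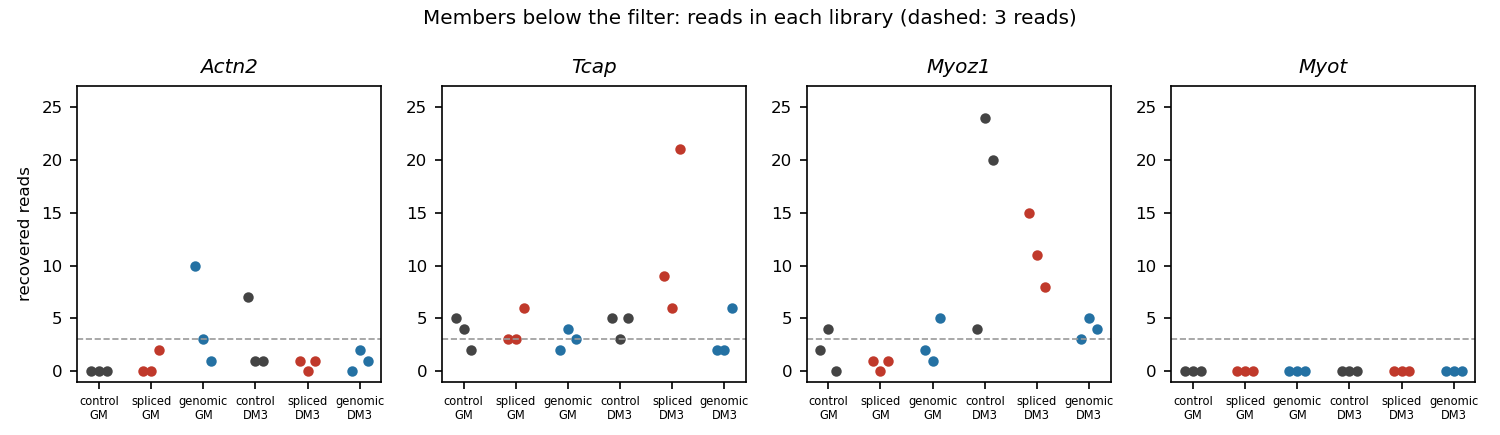
Reads per library of Actn2, Tcap, Myoz1 and Myot, by group. Each point is 1 library and the dashed line marks 3 reads. Myot lies at 0 throughout, Actn2 does not exceed 10 reads, and the highest counts are 24 for Myoz1 in control DM3 and 21 for Tcap in MUNC spliced DM3.

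Myom1 (ENSMUSG00000024049; chr17:71002633-71126856, plus strand, 10459 bases of exon) encodes myomesin, the M-band protein found in all striated muscle. In GM, Myom1 stood at 0.546, 0.619 and 0.676 FPM in control replicates 1 to 3, at 2.07, 2.22 and 2.18 in MUNC spliced, and at 1.65, 1.94 and 1.13 in MUNC genomic. In DM3 it stood at 1.36, 2.19 and 2.10 FPM in control, at 16.1, 4.76 and 7.00 in MUNC spliced, and at 4.08, 4.79 and 3.67 in MUNC genomic. Control libraries were the lowest in each medium, with no overlap with either MUNC line. Myom1 shares 207 exonic bases (1.98% of its own) with Myl12a on the opposite strand, which was at 457 to 751 FPM. Whether counting used strand is not given in the sources used here, so reads of Myl12a in that stretch cannot be told from those of Myom1.

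From GM to DM3 the mean of Myom1 rose 3.07-fold in control (log2 change 0.83, SE 0.27, limma adjusted p = 0.0150), 4.31-fold in MUNC spliced (1.55, adjusted p = 0.000430) and 2.65-fold in MUNC genomic cells (1.02, adjusted p = 0.00491). MUNC spliced cells had 3.51-fold more than control in GM (0.97, SE 0.27, adjusted p = 0.0107) and 4.93-fold more in DM3 (1.69, SE 0.27, adjusted p = 0.000101). MUNC genomic cells had 2.22-fold more than control in DM3 (0.85, SE 0.27, adjusted p = 0.0186). In GM their difference from control was 0.66 and was not called (adjusted p = 0.0803, range over 9 settings 0.00171 to 0.172), although it was under 5 of 9 other settings. The MUNC lines differed in DM3 (0.84, adjusted p = 0.0182), but their libraries overlapped. Without MUNC spliced DM3 replicate 1 that difference was 0.40 and was not called (adjusted p = 0.0834), and it was not called without MUNC genomic DM3 replicate 3 or where only the compared groups were fitted (adjusted p = 0.0624 and 0.0985, range over 9 settings 0.00431 to 0.0985). The change in control cells lost its call without control DM3 replicate 2 (0.75, adjusted p = 0.0545) and with quantile normalization (0.61, adjusted p = 0.0740), and ran up to 1.64 over the 9 settings. The difference of MUNC genomic from control in DM3 lost its call without control DM3 replicate 1 or MUNC genomic DM3 replicate 2 (adjusted p = 0.0746 and 0.0672). MUNC spliced against control in GM ran from 0.78 to 1.80 over the 9 settings.

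Myom2 (ENSMUSG00000031461; chr8:15057653-15133541, plus strand, 8853 bases of exon) encodes M-protein, the M-band component of fast skeletal fibres and heart. In GM, Myom2 stood at 4.34, 7.72 and 1.83 FPM in control replicates 1 to 3, at 4.80, 6.86 and 5.07 in MUNC spliced, and at 0.845, 1.32 and 0.546 in MUNC genomic. In DM3 it stood at 40.6, 68.3 and 46.3 FPM in control, at 112, 45.8 and 51.4 in MUNC spliced, and at 11.0, 18.1 and 15.1 in MUNC genomic. MUNC genomic libraries were the lowest in each medium, and control and MUNC spliced libraries overlapped in both. Unlike that of Ttn and Neb, the rise of Myom2 in control cells reached the range of MUNC spliced DM3 libraries.

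From GM to DM3 the mean of Myom2 rose 11.2-fold in control (log2 change 3.34, SE 0.37, limma adjusted p = 1.97e-06), 12.5-fold in MUNC spliced (3.33, adjusted p = 8.15e-06) and 16.3-fold in MUNC genomic cells (3.04, adjusted p = 6.97e-06). Control cells had 5.13-fold more than MUNC genomic cells in GM (log2 change -1.44, SE 0.37, adjusted p = 0.00796, -2.34 to -1.39 over the 9 settings) and 3.51-fold more in DM3 (-1.74, SE 0.37, adjusted p = 0.00125). MUNC spliced cells had 6.18-fold more than MUNC genomic cells in GM (1.80, adjusted p = 0.00117) and 4.74-fold more in DM3 (2.08, adjusted p = 0.000225). Between MUNC spliced and control cells no difference was called in GM (0.36, 95% interval -0.42 to 1.13) or in DM3 (0.34, -0.44 to 1.12). The differentiation response was not shown to differ from that of control in either line (interactions -0.01, 95% interval -1.11 to 1.09, and -0.30, -1.40 to 0.80). In MUNC genomic cells, the M-band gene Myom1 was thus above and Myom2 below control in DM3.

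Compared per kilobase of exon, Actn3 had the highest mean level of the 10 genes in 5 of the 6 groups and Ldb3 in control GM. The length used was that of all annotated exons of a gene together. Which transcripts were expressed, and how evenly reads covered them, was not examined. Levels of different genes, above all of ones as long as Ttn and Neb, can thus be compared only roughly. In control DM3 the mean levels were 11.6 FPM per kb for Actn3, 11.3 for Ldb3, 5.85 for Myom2, 0.180 for Myom1, 0.0442 for Neb and 0.0301 for Ttn. In MUNC spliced DM3 they were 34.1 for Actn3, 7.89 for Myom2, 5.48 for Ldb3, 0.889 for Myom1, 0.562 for Neb and 0.547 for Ttn. Titin and nebulin thus stayed below the Z-disc and M-band genes Actn3, Ldb3 and Myom2 per length of exon, in these groups and in the other 4. The nonmuscle alpha-actinins Actn1 and Actn4 were far above the sarcomeric ones, at 94.8 to 141 and 61.7 to 101 FPM per kb in the 6 groups, while Actn3 ran from 4.49 to 34.2 and Actn2 did not exceed 0.0189. Among myomesins, Myom2 was above Myom1 in 5 of the 6 groups, Myom1 was above Myom2 in MUNC genomic GM (0.150 against 0.102), and Myom3 did not exceed 0.0746.

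**Figure D4:**
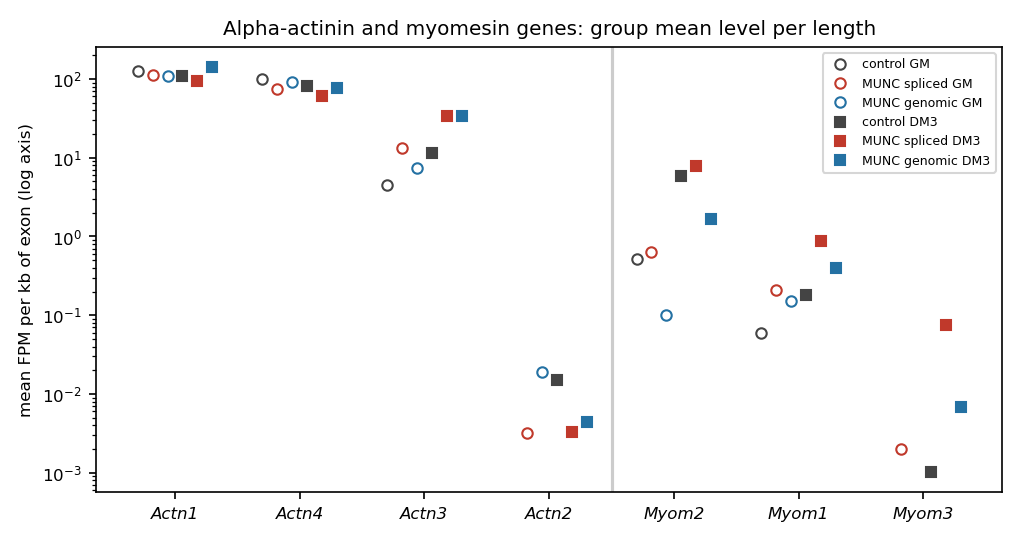
Mean level of the alpha-actinin and myomesin genes by group, in FPM per kilobase of exon on a log axis. Means of 0 (Actn2 in control GM, Myom3 in control GM and MUNC genomic GM) are not drawn. Actn1 and Actn4 lie above Actn3 in every group, and Actn2 and Myom3 lie at the bottom.

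Across the 18 libraries, Ttn and Neb varied together (Pearson r = 0.917 of log2(FPM + 1)), as did Actn3 and Myom1 (0.905), Ttn and Myom1 (0.889) and Neb and Myom1 (0.873). Ldb3 correlated with the other 5 at -0.11 to 0.26. The points share the 6 groups and the library scaling, so these values describe the libraries and carry no p. MUNC spliced DM3 replicate 1 was the highest of its group for 6 of 6 tested genes, control DM3 replicate 1 the lowest of its group for 6 of 6, and MUNC genomic GM replicate 3 the lowest of its group for 6 of 6. The same was not counted over all genes, so it may not be particular to these 6. MUNC spliced DM3 replicate 1 was also the highest of its group for every muscle identity gene except Pax7. Myog was at 226 FPM there, against 52.6 and 41.0 in the other replicates, and Myh3 at 177, against 24.2 and 37.9. In MUNC spliced DM3 replicate 1, whose depth was within the range of the other libraries, Ttn and Neb were 6.38 and 6.39 times the lowest library of the group and Ldb3 2.07 times. The genes outside the 10 whose pattern over the 18 libraries was most like that of Ttn were Atp2a1, the calcium pump of fast fibres (r = 0.968), the gene ENSMUSG00000099906 (0.957), which the table names mmu-mir-133b and GENCODE M21 names Gm28653, so that its value is not one of mature miR-133b, and Exoc3l (0.948).

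Other genes of the Z-disc, the M-band and thick filament, the titin N2A region and the thin filament ends and their assembly were taken from a list of 49, of which 37 passed the filter. From GM to DM3, limma called 14 of these higher and 1 lower in control, 17 and 1 in MUNC spliced, and 19 and 1 in MUNC genomic cells. Over all tested genes the shares called higher and lower were 29.6% and 28.6% in control, 17.2% and 18.4% in MUNC spliced, and 26.3% and 25.1% in MUNC genomic cells. Of the 37, 37.8%, 45.9% and 51.4% were called higher. Synpo2l, whose protein binds actin at the Z-disc, was among the 3 with the largest rise in each (log2 changes 3.68, 2.52 and 3.06). In control cells Capn3, a protease that binds titin, rose by 2.60 and Klhl41, a sarcomere assembly factor, by 2.26, while Ankrd1, a stress-responsive titin-binding protein, fell by 0.66. In MUNC spliced cells Mybph, a thick filament protein, rose by 3.92 and Klhl41 by 1.92, and Pdlim7 fell by 0.52. In MUNC genomic cells Lmod1, an actin nucleator of smooth muscle, rose by 2.88 and Klhl40 by 2.84, and Cavin4 fell by 0.46. The median log2 change of the 37 was 0.18, 0.59 and 0.39, beside 0.02, -0.01 and 0.02 for all tested genes. Some of the 37 passed the filter only through a group where they were high. Lmod2 did so through MUNC spliced DM3 (0.836 to 3.93 FPM, at most 0.180 elsewhere). Mybpc2 did so through MUNC genomic DM3 (1.70 to 2.04 FPM, at most 0.424 elsewhere). Counts and medians of the 37, here and below, therefore describe them and carry no test of the set.

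Against control in GM, 11 of the 37 were higher and 2 lower in MUNC spliced cells, and 7 higher and 2 lower in MUNC genomic cells, where 18.2% and 17.3% of all tested genes were called higher and lower for MUNC spliced, and 12.2% and 14.5% for MUNC genomic cells. In DM3 these counts were 18 and 3 for MUNC spliced, and 13 and 5 for MUNC genomic cells, beside 22.3% and 21% of all genes for MUNC spliced, and 19.3% and 20.9% for MUNC genomic cells. Desmin (Des), the intermediate filament that ties Z-discs together, was higher in MUNC genomic than in control cells by 4.25 in GM and 3.53 in DM3, and Fhl1 was lower there by values of -1.73 and -1.33. Synpo2 was higher in both lines in both media (2.93 and 2.60 in MUNC spliced, 1.76 and 2.37 in MUNC genomic cells). In DM3, MUNC spliced cells exceeded control in Mybph by 4.49 and in Cavin4 by 2.43, and MUNC genomic cells exceeded control in Lmod1 by 3.18. Set against MUNC genomic cells in DM3, MUNC spliced cells had 17 higher and 9 lower (23.4% and 20.8% of all genes), with Cavin4 (3.32), Mybph (2.49) and Fhl1 (2.06) higher and Des (-4.02), Lmod1 (-3.21) and Mybpc2 (-1.37) lower. The median log2 change of the 37 was 0.33, 0.04, 0.61 and 0.30 in the 4 comparisons with control, where that of all tested genes was -0.02, -0.03, 0.01 and -0.01. In the interactions with differentiation, 5 were called higher and 1 lower for MUNC spliced, and 5 higher and 0 lower for MUNC genomic cells, beside 7.43% and 6.94% of all genes for MUNC spliced, and 3.56% and 5.25% for MUNC genomic cells.

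In the authors' deposited tables, 7 of the 10 genes were higher in control DM3 than in control GM at an adjusted p under 0.05, the 5 called here with Neb (log2 fold change 2.34) and Myoz1 (3.13). Their deposited table for MUNC spliced against control in GM had Ttn (4.52), Neb (2.83), Actn3 (1.55) and Myom1 (1.81) higher. That for DM3 had the same 4 genes higher, at 4.18, 3.67, 1.56 and 2.30, and Ldb3 lower at -1.04. For MUNC genomic in GM, the authors' deposited table had Actn3 (0.74), Myom1 (1.40) and Ldb3 (0.46) higher and Myom2 (-2.31) lower, and in DM3 it had Actn3 (1.58) and Myom1 (1.17) higher and Myom2 (-1.80), Ldb3 (-0.68) and Myoz1 (-2.09) lower. Every gene called here in these comparisons had the same direction in the authors' deposited tables. Calls found in the authors' deposited tables and not with limma on log2(FPM + 1) were those of Neb and Myoz1 in control differentiation, Neb for MUNC spliced in GM, Actn3, Myom1 and Ldb3 for MUNC genomic in GM, and Myoz1 for MUNC genomic in DM3.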

How the data were processed

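Polyadenylated RNA of 18 C2C12 libraries was measured by RNA-seq, per the labels. The submitters' processing notes name STAR, HTSeq, DESeq2 and mm10, without role or version; annotation, filters and strand setting are not given in the sources used here. Groups came from the sample titles, because the source label (myoblasts or myotubes) contradicted the title for 9 samples.

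The authors deposited a table of normalized signal (FPM). Dividing each library's values by the smallest step shared by all genes returned whole reads for 100% of values, within 0.05 of a read. The authors also deposited comparison tables with log2 fold changes and their standard errors as log2 values, p-values and adjusted p-values, and mean normalized counts and test statistics as scores, which were not used. All columns of per-sample values were mapped to a sample.

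limma 3.58.1 in R 4.3.3 (lmFit, contrasts.fit, eBayes with trend, two-sided) was fitted to log2(FPM + 1) over 13869 genes, with a mean per group, 12 residual degrees of freedom and 11 comparisons: DM3 against GM in each kind of cells, the kinds of cells against each other in each medium, and each MUNC line's interaction with differentiation. The fit was also run on simulated data, for control DM3 against GM only and with the same spread for all genes. That run does not cover groups as widely spread as MUNC spliced DM3. Alternatives were pseudocounts of 0.1 and 0.5, no filter, FPM rescaled to equal sums, quantile normalization, only the compared groups, a replicate block, edgeR 4.0.16 (quasi-likelihood) and DESeq2 1.42.0 on recovered reads, and leaving out each library. The p-values measure the spread between these libraries; whether replicates were separate cultures is not given beyond the label of biological replicates.

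The members and gene lists were chosen with earlier results of these data known. Named were all 10 members, their called changes and those set beside them. Of the 49 further sarcomere genes, up to 3 higher and 3 lower per comparison were named, by size among called genes whose libraries did not overlap. For Ttn, the 3 most correlated genes were named. Marker lists were myogenic identity, fibroblast, smooth muscle, cardiac, adipocyte and osteoblast. The first, of 10 genes, summed to 101 to 115 FPM in control DM3, 233 to 852 in MUNC spliced DM3 and 68.1 to 120 in MUNC genomic DM3. In control DM3 the myoblast marker Myf5 alone was at 95.0 to 110 FPM. Myod1, Myog, Myh3, Ckm and Acta1 were each called higher in MUNC genomic than in control DM3, Myf5 was called lower and Myh1 was not called. Deviations of same-numbered libraries from their group means correlated above 0.1 in every pair for 6 of the 9 comparisons of groups. The exceptions were DM3 against GM in the MUNC lines and the MUNC lines against each other in DM3. The numbers may thus pair libraries in those 6, but the main limma fit used no pairing. A replicate block over all 18 libraries was an alternative setting and kept all 34 calls. Coordinates and exon lengths are from GENCODE M21 (GRCm38), which held 34490 of the 35275 identifiers (97.8%).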

Additional observations from a re-analysis of the deposited data

Results flagged for a closer look

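The Ldb3 response to differentiation differed between MUNC spliced and control cells in a test of the difference itself, the interaction term of limma (-1.44 on the log2(FPM + 1) scale, adjusted p = 0.0125). Over 9 other settings it ran from -1.50 to -1.38, with adjusted p from 0.00212 to 0.0314, and it was called in all of them and in all 12 fits that left out 1 library. Ldb3 rose in all 3 control DM3 libraries above every control GM library, while the MUNC spliced libraries of the media overlapped.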

How the results depend on the processing

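Of the 34 calls for single genes and comparisons, none reversed under any setting. All 34 were called with either smaller pseudocount, equal sums, edgeR, DESeq2 and the replicate block, 33 with no filter, 33 with quantile normalization and 31 where only the compared groups were fitted; leaving out 1 library kept 198 of 210 and ended 12. The count of the 10 genes called for MUNC spliced DM3 against GM went from 5 to 3 where only the compared groups were fitted. For MUNC genomic against control in GM it went from 1 to 2, adding Myom1, with pseudocounts of 0.1 and 0.5, only the compared groups, edgeR and DESeq2. For the interaction of MUNC genomic with differentiation it went from 0 to 1, Ldb3, with equal sums, only the compared groups, DESeq2 and the replicate block, which changed no other call. Leaving out 1 library, the counts ran from 4 to 6 for control DM3 against GM, 4 to 5 for MUNC spliced and 4 to 4 for MUNC genomic DM3 against GM, 3 to 4 and 1 to 1 for MUNC spliced and MUNC genomic against control in GM, 5 to 5 and 2 to 4 in DM3, 2 to 2 and 3 to 4 for the MUNC lines against each other in GM and DM3, 1 to 3 for the MUNC spliced interaction and 0 to 0 for that of MUNC genomic. The 2 came without MUNC genomic DM3 replicate 2, and the 3 without MUNC spliced DM3 replicate 2. Among the 49 further sarcomere genes, calls went from 20 to 13 for MUNC genomic DM3 against GM with no filter, from 6 to 3 for the MUNC spliced interaction with only the compared groups, and from 5 to 3 for the MUNC genomic interaction with edgeR. Depth limits Actn2, Tcap, Myoz1 and Myot, which had at most 24 reads in a library.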
